A study of Mus musculus with 5 samples.

Results

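The genes described here are 10 regulators and targets of mTORC1, the growth-promoting kinase complex, measured in erythroblasts from mouse marrow. They were chosen by name: all probes whose platform gene symbol is Mtor, Rptor, Rheb, Deptor, Tsc1, Tsc2, Ddit4, Sesn2, Eif4ebp1 or Rps6kb1. The annotation used here names 27 probes for 9 of these genes and none for Rps6kb1, which encodes the ribosomal S6 kinase and is not analysed here. Of the 27 probes, 15 lay above a background floor of 6.83 log2 signal on at least 2 of 5 arrays, and each of the 9 genes had at least 1 such probe, against 10034 genes and 45281 probes in the whole series.

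Erythroblasts are red cell precursors that still have a nucleus, and their total RNA, from C57BL/6J mice, was hybridised to Illumina bead arrays. The label of 2 arrays is Flvcr deleted, and that of the other 3 is wild type. Flvcr, the gene Flvcr1, encodes a heme exporter of the plasma membrane. The labels state neither the age of the mice nor how the gene was deleted, a Cre driver included. Nothing says that replicates came from separate animals, so the p-values rest on a spread among arrays that may be only technical.

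mTORC1 is built around the kinase mTOR and its substrate-binding subunit Raptor. It is switched on at the lysosome by the small GTPase Rheb and held back by the TSC complex, by DEPTOR, and by the stress-induced proteins REDD1 (from Ddit4) and Sestrin 2. The active complex phosphorylates the translation repressor 4E-BP1 (from Eif4ebp1) and the S6 kinase, which raises protein synthesis. In red cell precursors, heme availability also acts on translation through the kinase HRI (from Eif2ak1), which phosphorylates eIF2 and so raises ATF4, a transcription factor of the integrated stress response.

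Over all probes, r was 0.989 to 0.992 between arrays of one group and 0.948 to 0.954 across the groups. The measured Flvcr1 probe read 9.88 and 9.75 log2 signal in the deleted-labelled arrays and 8.16, 8.32 and 8.25 in the wild-type-labelled arrays, so the label of a deletion went with more signal, not less. Whether this probe lies inside the deleted part is not stated by the labels, so it cannot serve as a check of them. The groups are therefore called deleted-labelled and wild-type-labelled, and every direction rests on those labels. Erythroblast markers were bright in both groups: Hba-a1 (alpha globin) averaged 14.71 log2 signal in the deleted-labelled arrays and 14.83 in the wild-type-labelled ones, and Alas2 (the erythroid enzyme that starts heme synthesis) 13.34 in the deleted-labelled and 14.25 in the wild-type-labelled ones.

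In the deleted-labelled arrays, Ddit4 rose 3.18-fold and Eif4ebp1 rose 2.29-fold, while Rptor and Sesn2 rose 1.32-fold and 1.31-fold and Tsc1 fell by 0.43 on the log2 scale. Mtor, Rheb, Tsc2 and Deptor did not pass the test. By role, 1 of the 5 inhibitors fell (Tsc1) and 2 rose (Ddit4, Sesn2), 1 of the 2 kinase complex subunits rose (Rptor), and the 1 translation output measured rose (Eif4ebp1). Thus 4 of 9 members were higher and 1 lower (limma, Benjamini-Hochberg adjusted p under 0.05 over 10034 genes), or 55.6% called, where 39.5% of all genes tested were called, 21.9% higher and 17.6% lower. In a fit limited to the 6892 genes above the floor on all 5 arrays, 1966 were higher and 1635 lower, a larger share. There, too, 4 members were higher and 1 lower. The 2 groups did not overlap for 7 of 9 members (77.8%), 5 with the deleted-labelled arrays above and 2 with them below, against 59.2% of all genes (32.4% above and 26.8% below), and the members' median log2 difference was 0.23, against 0.01 over all genes tested. Leaving out either Flvcr-deleted replicate 2 or wild-type replicate 1 left only 2 members higher, and the call of Tsc1 was lost when Flvcr-deleted replicate 1 was left out and when wild-type replicate 1 was.

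**Figure D1:**
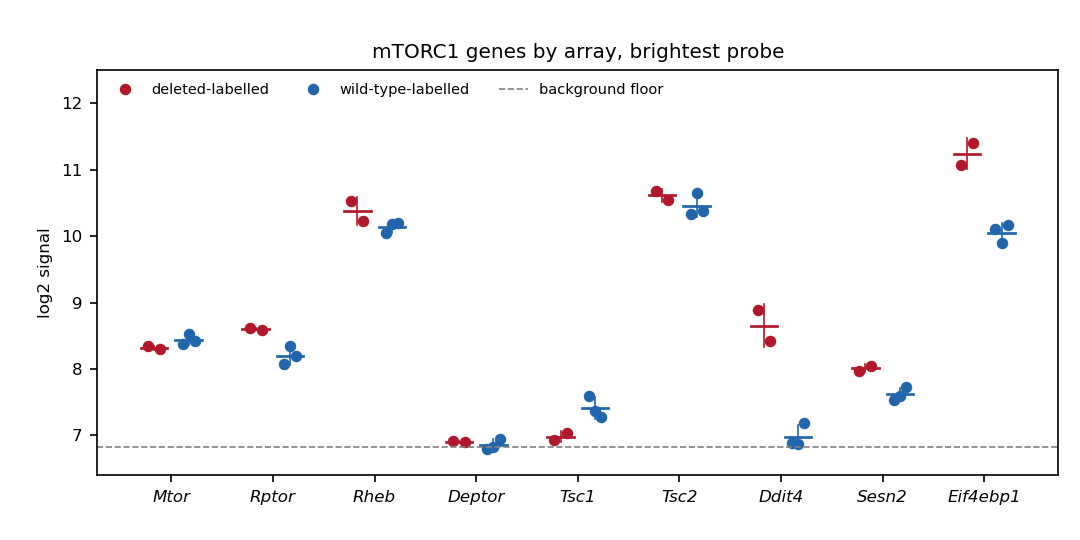
Log2 signal (y axis) of the brightest probe of each measured mTORC1 gene (x axis) on every array, with points for arrays, horizontal bars for group means, vertical bars for 1 SD and a dashed line at the background floor of 6.83. Deleted-labelled arrays (n = 2, red, left) lie clear of the wild-type-labelled ones (n = 3, blue, right) for Ddit4 and Eif4ebp1, and Deptor lies near the floor in both.

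Ddit4 had the largest difference of the members. REDD1, its product, is induced by hypoxia, DNA damage and amino acid shortage and inhibits mTORC1 through the TSC complex. Its single probe read 8.88 and 8.42 log2 signal in the deleted-labelled arrays, against 6.89, 6.87 and 7.19 in the wild-type-labelled arrays. Both deleted-labelled values lie more than a unit above all 3 others, which sit just over the background floor. Means of 8.65 ± 0.32 for the deleted label (SD, n = 2) and 6.98 ± 0.18 for the wild-type label (SD, n = 3) gave a difference of 1.67 (SE 0.16, adjusted p = 6.41e-05 by limma), and 1.63% of all genes tested differed by more. Signals near the floor compress a ratio: after normexp background correction of the deposited values the difference of Ddit4 was 2.06.

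Sesn2 encodes Sestrin 2, a leucine-binding inhibitor of the mTORC1 activator GATOR2 and, like Ddit4, a target of ATF4 and of stress. Its brightest probe read 7.97 and 8.05 log2 signal in the deleted-labelled arrays and 7.54, 7.59 and 7.72 in the wild-type-labelled ones. The groups did not overlap, and the log2 difference was 0.39 (SE 0.10, adjusted p = 0.0140 by limma). Both dimmer Sesn2 probes gave no such rise: their differences were -0.01 (adjusted p = 0.972) and -0.06 (adjusted p = 0.710, both over all probes kept), at signals no higher than 7.10. Averaging the 3 probes gave 0.11 and lost the call (adjusted p = 0.331, in a range of 0.00741 to 0.331 over 13 alternatives). Leaving out Flvcr-deleted replicate 2 (0.35, adjusted p = 0.101) or wild-type replicate 1 (0.35, adjusted p = 0.0506) lost it as well.

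The stretches just upstream of the transcription starts of Ddit4 and Sesn2 are shown because these are the 2 stress-induced inhibitors called higher, Sesn2 by its brightest probe only. Both are RefSeq sequences of build GRCm38.p6, 250 bases ending 1 base before the start, written 5′ to 3′ along the gene, with each CCAAT box (CCAAT or its reverse complement ATTGG) in capitals. The first covers chr10:59951771-59952020 on the minus strand and the other covers chr4:132510457-132510706 on the minus strand.
Ddit4: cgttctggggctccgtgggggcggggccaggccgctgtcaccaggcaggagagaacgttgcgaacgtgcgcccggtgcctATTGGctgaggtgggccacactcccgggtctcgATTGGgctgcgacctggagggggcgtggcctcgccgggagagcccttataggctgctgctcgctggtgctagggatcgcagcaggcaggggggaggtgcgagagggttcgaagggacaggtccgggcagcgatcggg
Sesn2: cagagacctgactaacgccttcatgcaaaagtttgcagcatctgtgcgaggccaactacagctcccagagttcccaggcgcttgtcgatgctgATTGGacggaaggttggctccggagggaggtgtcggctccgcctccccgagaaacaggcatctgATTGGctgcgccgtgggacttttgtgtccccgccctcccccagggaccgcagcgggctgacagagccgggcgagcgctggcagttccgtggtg
Each window holds 2 matches to CCAAT. Over both strands, 3 of the 8 members with a promoter in the table (Ddit4, Mtor, Sesn2) hold the motif, and 33.8% of all 32851 promoter windows do, so the members' share is close to the background.

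The composite element that ATF4 and C/EBP factors bind, written TGATGNAA, was absent as letters from the upstream 250 bases of all 8 members with an entry, and 3.45% of all promoter windows hold it on either strand. In the list of 8 genes of the ATF4 arm, 3 hold it (Chac1, Nupr1 and Asns), shown here for comparison with the motif in capitals and 11 bases on each side. They lie at chr2:119351038-119351067 (plus strand), chr7:126625562-126625591 (minus strand) and chr6:7693214-7693243 (minus strand) of GRCm38.p6.
Chac1: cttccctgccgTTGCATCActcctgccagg
Nupr1: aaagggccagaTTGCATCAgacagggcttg
Asns: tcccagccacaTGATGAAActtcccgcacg
In Chac1 and Nupr1 the letters run on the opposite strand and in Asns on the gene's own strand. A match describes letters in a window, and its absence says nothing about sites elsewhere.

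Eif4ebp1 encodes 4E-BP1, which binds the cap-binding protein eIF4E and blocks translation initiation until mTORC1 phosphorylates it, and its transcript is also a known target of ATF4. The single Eif4ebp1 probe read 11.08 and 11.41 log2 signal in the deleted-labelled arrays, against 10.10, 9.89 and 10.16 in the wild-type-labelled arrays. Every deleted-labelled value was well above every wild-type-labelled one. Eif4ebp1 averaged 11.24 ± 0.24 in the deleted-labelled arrays (SD, n = 2) and 10.05 ± 0.14 in the wild-type-labelled ones (SD, n = 3), a difference of 1.19 (SE 0.13, adjusted p = 1.52e-04 by limma), and 5.98% of all genes differed by more. The paralog Eif4ebp2 differed by 0.09 (SE 0.12, adjusted p = 0.626) and the cap-binding protein gene Eif4e by 0.08 (SE 0.09, adjusted p = 0.575), so neither passed. These are transcript signals, and the phosphorylation of 4E-BP1 was not measured.

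Rptor and Mtor encode the core of the complex. The one Rptor probe above the floor read 8.62 and 8.59 log2 signal in the deleted-labelled arrays and 8.07, 8.34 and 8.19 in the wild-type-labelled ones. The groups did not overlap, though the gap between them was smaller than the range of the wild-type-labelled values. The log2 difference of the means was 0.40 (SE 0.11, adjusted p = 0.0171 by limma). The other 5 Rptor probes were not kept, with no array above 6.85. Rptor lost its call when either deleted-labelled array was left out (adjusted p = 0.0902 for replicate 1 and 0.0713 for replicate 2) and when wild-type replicate 1 was (0.0575), at differences between 0.34 and 0.42.

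For Mtor, the brightest probe gave 8.34 and 8.30 log2 signal in the deleted-labelled arrays and 8.37, 8.53 and 8.42 in the wild-type-labelled arrays. The log2 difference was -0.12, with a 95% interval for this probe of -0.35 to 0.10, and did not pass (adjusted p = 0.391 by limma). Another Mtor probe gave -0.28 (adjusted p = 0.160 over all probes kept), in the same direction, and the remaining probe was under the floor on every array.

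Rheb, the GTPase that activates mTORC1, read 10.53 and 10.23 log2 signal in the deleted-labelled arrays and 10.04, 10.18 and 10.21 in the wild-type-labelled ones. The lowest of the first pair lies only just above the highest of the other 3, and the log2 difference of 0.23 did not pass (95% interval -0.04 to 0.51, adjusted p = 0.164 by limma). The other 3 Rheb probes were under the floor on every array.

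Tsc1 and Tsc2 encode hamartin and tuberin, which together turn Rheb off. The brightest Tsc1 probe read 6.93 and 7.04 log2 signal in the deleted-labelled arrays, against 7.60, 7.37 and 7.27 in the wild-type-labelled arrays. Tsc1 was lower in both arrays of the deleted label than in any of the others, close to the floor of 6.83, and the log2 difference was -0.43 (SE 0.12, adjusted p = 0.0186 by limma). A dimmer Tsc1 probe gave -0.21 and did not pass (adjusted p = 0.183 over all probes kept). The platform assigns the brightest probe to a cDNA clone and the dimmer one to the RefSeq transcript, so no RefSeq probe of Tsc1 was called. Without Flvcr-deleted replicate 1 the call of the brightest probe was lost (-0.38, adjusted p = 0.120), as it was without wild-type replicate 1 (-0.34, adjusted p = 0.0553).

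Tsc2 read 10.69 and 10.55 log2 signal in the deleted-labelled arrays and 10.34, 10.65 and 10.38 in the wild-type-labelled arrays. The groups overlapped, and neither this probe (difference 0.16, 95% interval -0.12 to 0.44, adjusted p = 0.361 by limma) nor a second one (0.05, adjusted p = 0.793 over all probes kept) passed. Tbc1d7, the gene of the third subunit of the TSC complex, is given with the other observations.

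Deptor, which encodes an inhibitory subunit of both mTOR complexes, was hardly above background. Its brighter probe read 6.91 and 6.90 log2 signal in the deleted-labelled arrays and 6.79, 6.82 and 6.95 in the wild-type-labelled arrays, of which only 1 of the 3 exceeded the floor. The difference of 0.05 (95% interval -0.17 to 0.28, adjusted p = 0.749 by limma) says little about a transcript whose signal cannot be separated from background.

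**Figure D2:**
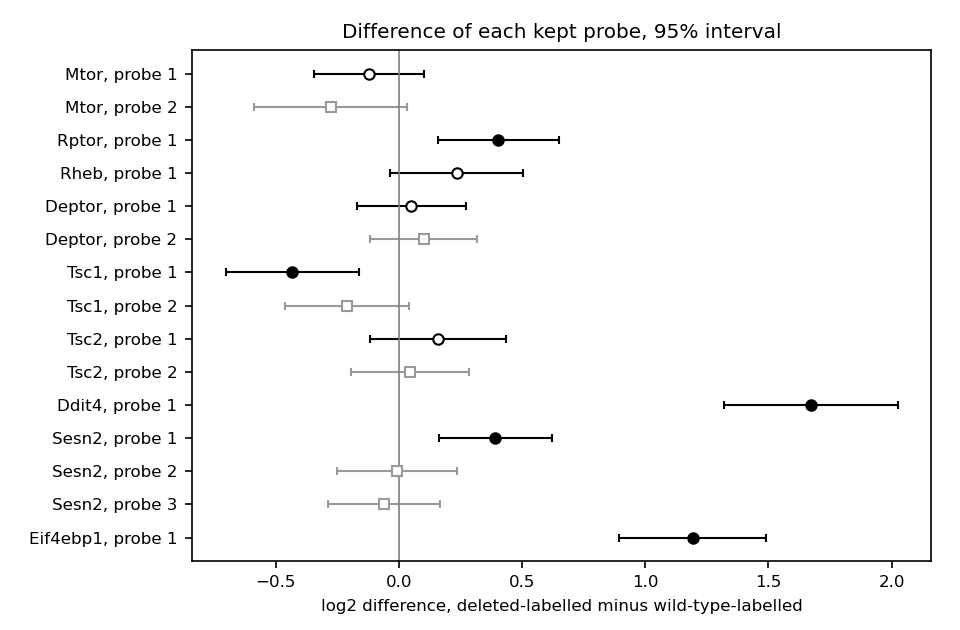
Log2 difference, deleted-labelled (n = 2) minus wild-type-labelled (n = 3), of each of the 15 kept probes (rows, in order of brightness within a gene), with 95% intervals from limma. Circles are the brightest probe of a gene, squares its other probes, and filled symbols passed at an adjusted p under 0.05 over all probes kept. Of the 15 probes 5 passed (33.3%), beside 35.5% of all probes kept, and both dimmer Sesn2 probes lie at -0.01 and -0.06.

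Markers of other cell types were measured in these samples, and several were lower under the deleted label. Of all genes tested, 17.6% were lower and 39.5% were called in either direction. The mean log2 signal of 10 neutrophil markers ran from 8.66 to 8.80 in the deleted-labelled arrays and from 9.93 to 10.83 in the wild-type-labelled ones, with 4 of 10 lower. For the other 6 the groups overlapped. Single neutrophil markers differed between the 2 deleted-labelled arrays in opposite ways. Mpo read 12.34 in replicate 1 and 10.25 in replicate 2, and S100a8 read 9.86 and 11.17. For 6 measured mast cell, basophil and eosinophil markers it ran from 7.23 to 7.25 under the deleted label and from 8.66 to 8.90 under the wild-type label (5 lower, Ms4a2 under the floor). For 5 B cell markers it was 6.77 to 6.80 in deleted-labelled and 7.34 to 7.71 in wild-type-labelled arrays (3 lower, Pax5 under the floor). Those deleted-labelled means lie under the background floor of 6.83. The 8 macrophage markers gave 7.48 to 7.91 in deleted-labelled and 7.85 to 8.32 in wild-type-labelled arrays (1 lower), so these ranges overlapped. The 3 megakaryocyte markers gave 7.16 to 7.35 in deleted-labelled and 8.21 to 8.32 in wild-type-labelled arrays (2 lower, Pf4, Gp1bb and Ppbp under the floor). The 2 T and NK cell markers gave 7.22 to 7.77 in deleted-labelled and 8.04 to 8.56 in wild-type-labelled arrays (1 lower, Cd3g, Cd8a and Klrb1c under the floor). These 2 went opposite ways, Nkg7 by -1.80 (SE 0.29) and Cd3e by 0.24 (SE 0.11, not called). Of 7 erythroblast markers 5 were lower as well, with mean signals of 12.26 to 12.30 in deleted-labelled and 12.88 to 12.93 in wild-type-labelled arrays. The part of cell composition in the members' differences was not tested, and in bulk samples fewer cells of a type and less RNA per cell cannot be told apart.

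The rest of the pathway was followed in 93 further genes in 7 lists, of which 72 were measured, 15 lay under the floor and 6 have no probe in the annotation used here. Of the 72, 19 were higher and 16 lower in the deleted-labelled arrays, or 48.6% called beside 39.5% of all genes, and their median log2 difference was 0.07. The share called was larger among brighter genes: of the 6892 above the floor on all 5 arrays, 1966 were higher and 1635 lower. The calls were spread over both directions in 6 of the 7 lists, the exception being the partners of mTOR. By list, 60% of measured genes were called for the partners and the Rag GTPases, 50% for GATOR and the sensors and 87.5% for the ATF4 arm. Growth factor and energy inputs had 42.9% called, translation outputs 33.3% and autophagy, lysosome and lipid outputs 22.2%. These last shares lie near or under the 39.5% of all genes. Like the members, the lists were chosen with earlier results of these data known, so these shares do not test them.

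**Figure D3:**
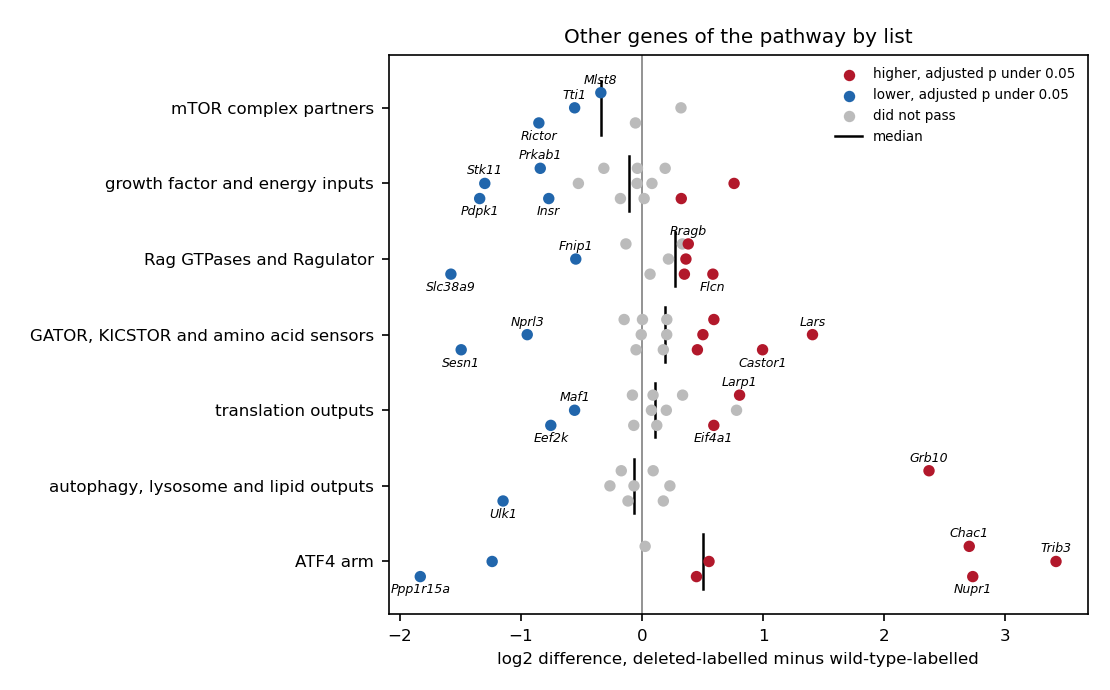
Log2 difference, deleted-labelled minus wild-type-labelled (x axis), of every measured gene of 7 further pathway lists (rows). Points are genes, red where higher and blue where lower at an adjusted p under 0.05 and grey where the test was not passed, black bars are list medians, and named points are the called genes of largest difference; Trib3 at 3.42 and Ppp1r15a at -1.83 are the extremes.

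Among partners of mTOR, 3 of 5 measured genes fell and none rose (limma; at an unadjusted p under 0.05, 1 was higher and 3 lower), with a median of -0.34. Rictor, which defines the other mTOR complex, mTORC2, read 8.08 and 8.49 log2 signal in the deleted-labelled arrays and 9.16, 9.27 and 8.98 in the wild-type-labelled ones (difference -0.85, SE 0.14, adjusted p = 0.00146). Those values are of its brightest probe, the only one of its 6 kept probes that passed. The others gave differences of -0.17 to -0.11 (adjusted p = 0.224 to 0.446 by limma over all probes kept). With the mean of the 6 the difference was -0.26. Tti1, which helps mTOR-family kinases fold, differed by -0.56 (SE 0.10, adjusted p = 0.00180). Mlst8, a subunit shared by both complexes, differed by -0.34 (SE 0.11, adjusted p = 0.0352), and its call was lost in 6 of 13 alternatives.

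Growth factor and energy inputs had 2 of 14 measured genes higher and 4 lower, with a median of -0.11. Pdpk1, the kinase that activates AKT and S6 kinase, read 8.33 and 7.80 log2 signal in the deleted-labelled arrays and 9.44, 9.67 and 9.10 in the wild-type-labelled ones (difference -1.34, SE 0.19, adjusted p = 6.55e-04). A second kept probe of Pdpk1 gave -0.66 and passed as well. Stk11, which encodes LKB1, the kinase upstream of AMPK, read 9.42 and 9.79 log2 signal under the deleted label, against 11.05, 10.97 and 10.69 under the wild-type one (difference -1.30, SE 0.15, adjusted p = 1.79e-04). Both groups of values were well apart for these 2 genes. Prkab1, a regulatory subunit of AMPK, fell by 0.84 (SE 0.10) and Insr, the insulin receptor, fell by 0.77 (SE 0.11), while Prkaa1, a catalytic subunit of AMPK, differed by 0.02 (SE 0.09, adjusted p = 0.910).

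Rag GTPases and their lysosomal anchor, through which amino acids bring mTORC1 to the lysosome, had 4 of 10 measured genes higher and 2 lower, with a median of 0.28. Slc38a9, the lysosomal arginine sensor, had the largest difference: its brightest probe read 7.10 and 7.44 log2 signal in the deleted-labelled arrays and 8.89, 9.05 and 8.59 in the wild-type-labelled ones (-1.58, SE 0.16, adjusted p = 8.56e-05). Its other kept probes gave -0.72 (adjusted p = 0.00414) and 0.04 (adjusted p = 0.769), so the probes did not all move, and their mean differed by -0.75. Folliculin, Flcn, and its partner Fnip1, which together act on the Rag GTPases, differed in opposite directions, Flcn by 0.59 (SE 0.11) and Fnip1 by -0.55 (SE 0.12). A second kept probe of Flcn gave 0.09 (adjusted p = 0.587) and a second one of Fnip1 gave -0.18 (adjusted p = 0.293), and neither passed. Rragb, a Rag GTPase, differed by 0.38 (SE 0.10, adjusted p = 0.0141), with only 1 of 3 wild-type-labelled arrays above the floor, and did not pass once Flvcr-deleted replicate 1 was left out (adjusted p = 0.111).

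GATOR, KICSTOR and the amino acid sensors had 5 of 14 measured genes higher and 2 lower, with a median of 0.19. Lars, the cytosolic leucyl-tRNA synthetase, which also serves as a leucine sensor, read 12.37 and 12.31 log2 signal in the deleted-labelled arrays and 10.78, 11.04 and 10.98 in the wild-type-labelled ones (difference 1.41, SE 0.11, adjusted p = 2.67e-05). Castor1, the cytosolic arginine sensor, differed by 1.00 (SE 0.09, adjusted p = 6.78e-05), with 1 of 3 wild-type-labelled arrays above the floor. Among the sestrins, Sesn1, a p53 and FOXO target, went the other way from Sesn2: it read 9.69 and 9.48 log2 signal in the deleted-labelled arrays and 11.14, 10.90 and 11.20 in the wild-type-labelled ones (difference -1.49, SE 0.12, adjusted p = 3.68e-05), while Sesn3 lay under the floor. The other kept Sesn1 probes gave -0.75 and -1.14, and both passed. Nprl3, a GATOR1 subunit whose introns hold the alpha globin enhancers, differed by -0.95 (SE 0.11) by its brightest probe and by -0.05 and 0.05 by its other kept probes, which did not pass.

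Translation outputs had 2 of 12 measured genes higher and 2 lower, with a median of 0.11. Larp1, the repressor of ribosomal protein mRNAs that mTORC1 controls, differed by 0.81 (SE 0.15, adjusted p = 0.00227), and Eif4a1, the helicase of the cap-binding complex, by 0.59 (SE 0.10, adjusted p = 0.00172). The other kept Larp1 probes gave 0.51 and 0.40, and both passed. Eef2k, the kinase that slows elongation and is inhibited downstream of mTORC1, differed by -0.75 (SE 0.11, adjusted p = 6.40e-04), and Maf1, a repressor of RNA polymerase III, by -0.56 (SE 0.13, adjusted p = 0.00839). The call of Maf1 was lost without Flvcr-deleted replicate 2 (adjusted p = 0.0808). Rps6, the substrate of S6 kinase, differed by 0.20 (SE 0.15, adjusted p = 0.347), and Rps6kb2, the paralog of the unmeasured S6 kinase gene, by -0.07 (SE 0.10, adjusted p = 0.671).

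Autophagy, lysosome and lipid outputs had 1 of 9 measured genes higher and 1 lower, with a median of -0.07, and 7 did not pass. Grb10, the gene that was higher, is an adaptor that damps signalling from growth factor receptors and a substrate of mTORC1. It is not itself an autophagy, lysosome or lipid gene. Its 1 kept probe, of 3, read 10.05 and 9.99 log2 signal in the deleted-labelled arrays and 7.82, 7.49 and 7.63 in the wild-type-labelled ones. The difference of 2.37 (SE 0.12, adjusted p = 4.73e-06 by limma) was larger than that of any member. Ulk1, the autophagy kinase that mTORC1 restrains, averaged 8.62 ± 0.11 log2 signal in the deleted-labelled arrays (SD, n = 2) and 9.76 ± 0.20 in the wild-type-labelled ones (SD, n = 3; difference -1.15, SE 0.13, adjusted p = 1.84e-04).

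The ATF4 arm, which holds known inducers and targets of ATF4, had 5 of 8 genes higher and 2 lower, with a median of 0.50. Trib3, a pseudokinase, read 11.54 and 11.68 log2 signal in the deleted-labelled arrays and 8.28, 7.65 and 8.63 in the wild-type-labelled ones (difference 3.42, SE 0.24, adjusted p = 1.72e-05). Those values are of its brightest probe. Its other kept probes gave smaller differences, 1.93 and 1.80, and both passed. Nupr1, a stress-induced chromatin protein (2.73, SE 0.10), and Chac1, which degrades glutathione (2.70, SE 0.14), rose as well, Nupr1 with 2 of 3 wild-type-labelled arrays above the floor. Ppp1r15a, the stress-induced subunit of the eIF2 phosphatase, moved the other way and read 10.63 and 10.53 log2 signal under the deleted label, against 12.53, 12.28 and 12.40 under the wild-type one (difference -1.83, SE 0.11, adjusted p = 1.01e-05). All 3 members described above as targets of ATF4 (Ddit4, Sesn2 and Eif4ebp1) were higher in this same comparison, Sesn2 by its brightest probe only. Of all genes tested, 21.9% were higher, and members and lists were chosen with earlier results of these data known. Whether ATF4 acted on any of these genes was not tested.

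**Figure D4:**
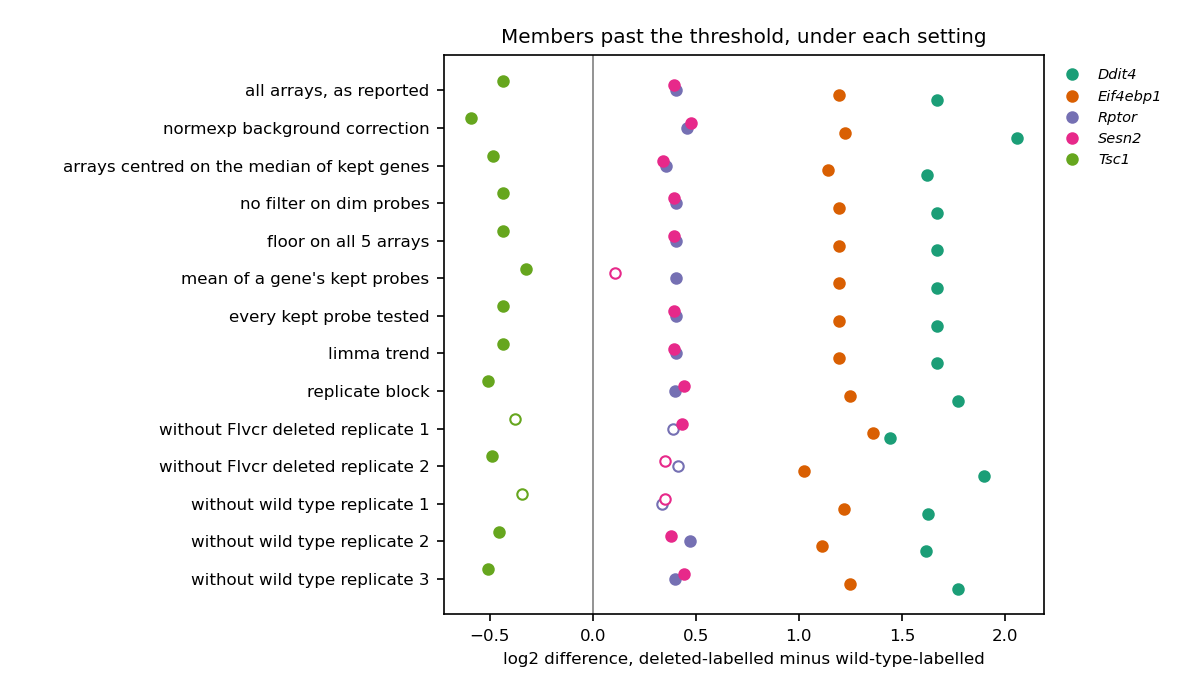
Log2 difference, deleted-labelled minus wild-type-labelled (x axis), of the 5 called members (colours) under all arrays and 13 alternatives (rows), filled where the adjusted p was under 0.05. Ddit4 (1.44 to 2.06) and Eif4ebp1 (1.03 to 1.36) passed under all 13, and open symbols for Rptor, Sesn2 and Tsc1 mark settings where the call was lost.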

How the data were processed

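Log2 signals of 5 arrays were analysed as the authors deposited them. The log2 scale is read from the values, since no label or file header states scale, normalization or software. Over all arrays together the signals run from 6.35 to 15.06, each array has a median of 6.76, and no value is missing. How the values were normalized was not tested. Per the labels' protocols, RNA came from a QIAGEN kit and biotinylated cRNA from an Ambion MessageAmp kit. A table of 10 columns of signals and detection p-values was not used, because its column names match no sample.

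The background floor, 6.83, lies 1.64 times 0.0825, the spread below the most frequent signal, over that signal, 6.70. Probes above it on at least 2 arrays were kept (17655, of them 15144 with 1 symbol), and a gene is its kept probe of highest mean signal. Symbols came from the platform annotation, which gave 34885 probes 1 symbol, 18 several and 10378 none, updated through RefSeq IDs. Differences were fitted with limma 3.58.1 (R 4.3.3; lmFit, eBayes, genotype as the only term, 3 residual and 5.67 prior degrees of freedom), two-sided, with Benjamini-Hochberg adjustment over all 10034 genes and calls under 0.05. The fit was tested on simulated data in which 200 of 10034 genes were changed. At a log2 change of 0.5 it recovered 62% of them, with 14 false calls. At changes of 1 and 2 it recovered 100%, with 17 and 16 false calls. Far more genes were called in the data than were changed in the simulation.

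Members and lists were chosen with earlier results of these data known. Named genes are the members, Flvcr1 and up to 4 called genes of largest difference per list. Further genes were named after their values were seen: Eif4ebp2, Eif4e, Prkaa1, Rps6, Rps6kb2, Sesn3, Hba-a1, Alas2, Mpo, S100a8, Nkg7, Cd3e, the markers under the floor and those with the other observations. The number of arrays limits the precision. Alternatives were normexp correction, centring, 2 other filters, 2 other treatments of probes, a variance trend, a replicate block and leaving out each array.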

Additional observations from a re-analysis of the deposited data

How the results depend on the processing

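Ddit4 and Eif4ebp1 kept their direction and passed under all 13 alternatives, with differences of 1.44 to 2.06 and 1.03 to 1.36. Mtor, Rheb and Tsc2 passed under none of 13 and Deptor under none of 12, since it was not tested when the floor had to be exceeded on all 5 arrays. Leaving out 1 array gave 2 to 4 members higher and 0 to 1 lower by limma (4 to 5 and 1 at an unadjusted p under 0.05). It gave differences of 0.34 to 0.47 for Rptor, 0.35 to 0.45 for Sesn2 and -0.51 to -0.34 for Tsc1, and each lost its call in at least 1 such fit. With 1 array left under the deleted label, that array is assumed to vary like the others. Averaging each gene's kept probes put Sesn2 at 0.11 and lost its call, because both dimmer probes lie near 0. The cause of the other losses was not tested. The replicate numbers are shared by label only: arrays numbered 1 deviated from their group means with r = -0.03 and arrays numbered 2 with r = 0.10 across genes. With the replicate block, in which wild-type replicate 3 has no partner and so does not bear on the differences, 2322 genes were higher and 1894 lower (2201 and 1764 without it), 4 members were higher and 1 lower, and no member's call changed. No scaling moved the median of all genes by 0.1 on the log2 scale. Dim signals limit Deptor, Tsc1 and Ddit4, which lie near the floor in 1 or both groups.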

Other observations

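Several called genes of the pathway lists were outside the naming rule and are given here as values. Irs2, an insulin receptor substrate, read 9.31 and 9.24 log2 signal in the deleted-labelled arrays and 8.64, 8.64 and 8.26 in the wild-type-labelled ones (difference 0.76, SE 0.13, adjusted p = 0.00192 by limma), while Irs1 differed by -0.04 (adjusted p = 0.824). Tbc1d7, the third subunit of the TSC complex, differed by 0.33 (SE 0.10, adjusted p = 0.0296), so of the 3 subunit genes Tbc1d7 was higher, Tsc1 lower and Tsc2 not called. The GATOR2 genes Mios (0.59, adjusted p = 0.00772) and Sec13 (0.46, adjusted p = 0.0481) and the GATOR1 gene Nprl2 (0.50, adjusted p = 0.0227) were higher. So were Lamtor4 of the Ragulator (0.36, adjusted p = 0.0167) and the Rag GTPase gene Rragc (0.35, adjusted p = 0.0150).

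In the ATF4 arm, Atf4 itself differed by 0.55 (SE 0.18, adjusted p = 0.0341) and Asns, asparagine synthetase, by 0.45 (SE 0.10, adjusted p = 0.00591). Eif2ak1, the heme-regulated kinase HRI, read 10.73 and 10.80 log2 signal in the deleted-labelled arrays and 12.11, 12.04 and 11.85 in the wild-type-labelled ones (difference -1.24, SE 0.11, adjusted p = 4.81e-05). Ddit3, the stress factor CHOP, differed by 0.03 (SE 0.19, adjusted p = 0.936).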
